A study of Mus musculus with 6 samples.

Results

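The genes described here are Myc and 42 genes whose products build ribosomes in the nucleolus, 43 of the 53090 gene rows in the deposited files. They were taken by symbol from a list drawn up for this function with earlier results of these data known. Their share of calls is therefore no independent evidence. Each symbol matched 1 row, and all 43 passed the filter on low counts, among 13458 genes tested. RNA was measured in Ly6G-selected neutrophils from liver (3 libraries) and in Ly6G-selected neutrophils from blood (3 libraries). All mice, in both groups, had been fed a DDC diet for 1 week, which damages bile ducts, and no library from mice off the diet was analysed here. Liver cells came through a Percoll density gradient and blood cells through red cell lysis, so preparation and tissue cannot be told apart. The sources used here give neither strain, sex nor age, and do not state which liver and blood library, if any, came from 1 mouse.

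Ribosomes are assembled in the nucleolus. RNA polymerase I transcribes the ribosomal RNA precursor, small nucleolar RNPs (snoRNPs) modify it, and separate sets of assembly factors trim and fold it into the small and the large subunit. The transcription factor MYC, bound to its partner MAX, raises many of these genes, and MXD proteins compete for MAX. Mature neutrophils no longer divide, and MXD1 is known for its rise as neutrophils mature.

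Most of these 43 genes were higher in the liver libraries. Of 111 other ribosome biogenesis genes tested, fewer were called higher (42.3%), with a median log2 fold change of 0.76. Of the 43 members, 30 were called higher and 1 lower, where a call is an adjusted p under 0.05 in edgeR's quasi-likelihood test fitted over all 13458 genes. The 30 make 69.8% of the members, against 17.4% of all genes tested that were called higher. The 1 lower member, Polr1a, makes 2.33%, against 14.2% of all genes. In either direction 31 of the 43 members were called, against 31.6% of all genes. The median log2 fold change of liver over blood was 1.59 over the members and 0.04 over all genes, and the 30 members were each at least 2-fold higher, with 11 of them at least 4-fold higher. In 36 members (83.7%) all liver libraries lay above all blood libraries, a pattern found in 25.8% of the genes tested, and in 1 member all lay below, as in 22.7% of the genes tested. Protein-coding genes within the members' range of mean level gave 18.5% called higher.

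**Figure D1:**
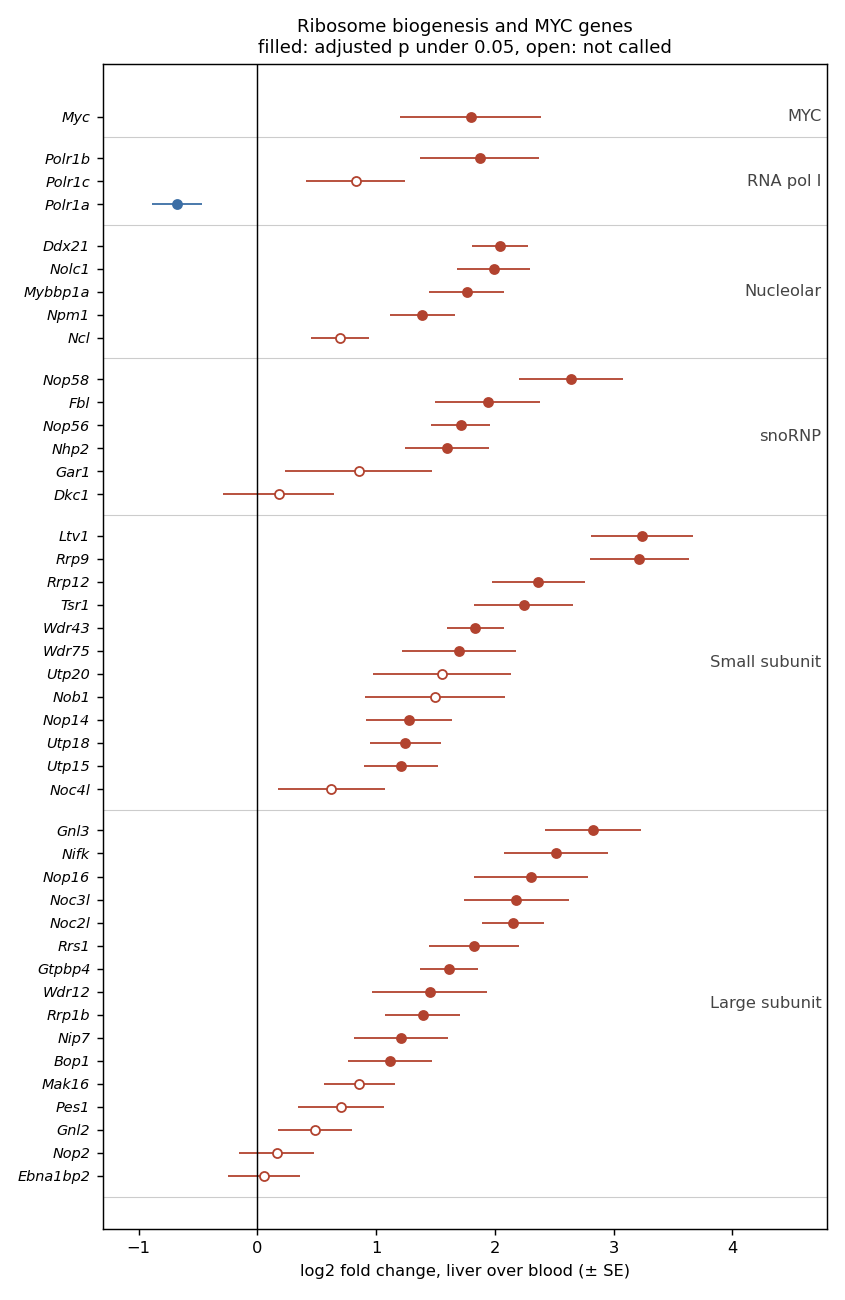
Log2 fold change of liver over blood neutrophils (x axis, ± SE, n = 3 libraries each) for the 43 members, grouped by role and ordered by size. Filled points passed an adjusted p under 0.05; the values run from -0.67 for Polr1a to 3.24 for Ltv1, and all but Polr1a lie to the right of 0.

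Summed over the members, CPM (read counts scaled to a common library size after TMM normalization) reached 1512, 1308 and 1379 in liver 1, 2 and 3, against 884, 570 and 725 in blood 1, 2 and 3. Library totals were 13778681 to 17579669 counts in liver and 13054673 to 14403803 in blood, so that 3 counts correspond to 0.180 to 0.262 CPM. Other transcripts moved with the groups too. The 15 genes listed as mature neutrophil markers summed to 8900 to 15400 CPM in liver and 25300 to 37100 CPM in blood, with 11 of 15 called lower in liver. Of these 15, Camp, Ltf and Ngp had positive log2 fold changes (1.03, 0.61 and 0.54), were not called and overlapped between groups. Their highest levels were in liver 1, where Ngp had 610 CPM, against 76.1 and 118 CPM in liver 2 and 3. Hepatocyte markers (6 of 6 tested called higher, 11 listed) summed to 17.6 to 255 CPM in liver and 0.612 to 5.30 CPM in blood. Kupffer cell and macrophage markers (6 of 11 tested higher, 12 listed) summed to 240 to 644 CPM in liver and 41.4 to 181 CPM in blood. Monocyte markers (6 of 10 higher) summed to 1260 to 2100 CPM and 480 to 709 CPM, liver endothelial markers (6 of 7 tested higher, 10 listed) to 135 to 161 CPM and 33.0 to 66.2 CPM, and dendritic cell markers (5 of 8 higher) to 38.5 to 93.2 CPM and 9.26 to 18.7 CPM, liver before blood in each pair. No marker of these 5 lists was at 0 in every library of a group. Erythroid markers leaned the other way with overlapping groups, at 143 to 2720 CPM in liver and 366 to 33600 CPM in blood, and 0 of 7 were called. Immature neutrophil marker sums overlapped between the groups, at 70.1 to 137 CPM in liver and 40.9 to 101 CPM in blood. Most of each sum was Mki67, at 50.2 to 104 CPM in liver and 29.7 to 85.4 CPM in blood. Of 5 tested (10 listed), 4 had positive log2 fold changes, and 1, Gfi1 (1.93), was called higher. Top2a was higher in liver without overlap but not called, and Cebpe had -1.04 and was not called. Mpo, not tested, had 52, 38 and 3 counts in liver and 1, 2 and 0 in blood. Ms4a3 was at 0 in every library. Biliary markers summed to 46.3 to 72.5 CPM in liver and 11.2 to 14.6 CPM in blood, where Krt19, Sox9 and Cldn4 were at 0. The 2 of these 7 that were tested went opposite ways: Spp1 averaged 55.6 CPM in liver, against 2.04 CPM in blood, and was called higher, and Krt7 averaged 3.12 CPM in liver, against 10.4 CPM in blood, and was called lower. Platelet markers (4 of 6 tested called lower, 8 listed) summed to 12.96 to 23.1 CPM in liver and 46.5 to 248 CPM in blood. B and plasma cell markers (2 of 7 tested called lower, 9 listed) summed to 63.8 to 79.3 CPM in liver and 52.3 to 241 CPM in blood. The 7 tested had negative log2 fold changes. T and NK cell markers (1 of 8 tested called lower, 10 listed) summed to 6.01 to 14.7 CPM in liver and 7.08 to 12.5 CPM in blood. Mitochondrial mRNAs took 0.672%, 1.43% and 1.00% of counts in liver 1, 2 and 3, against 0.158%, 0.108% and 0.0743% in blood 1, 2 and 3. The part of other cells and of RNA composition in the results on the members was not tested. In bulk libraries such as these, fewer cells of a type and less RNA per cell cannot be told apart.

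Hepatocyte and Kupffer cell markers were highest in liver 3 among the liver libraries, and blood 1 the highest Kupffer cell markers and haemoglobin of the blood libraries. Blood 1 also had the highest levels of many members: 33 of the 43 lay above their blood mean there on the log2 scale, by a median of 0.27. With liver 3 and blood 1 left out together, 22 members were called higher and 0 lower, 21 of them also called with all libraries, and the median log2 fold change was 1.48, while the share of all genes called higher was 11.9%.

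**Figure D2:**
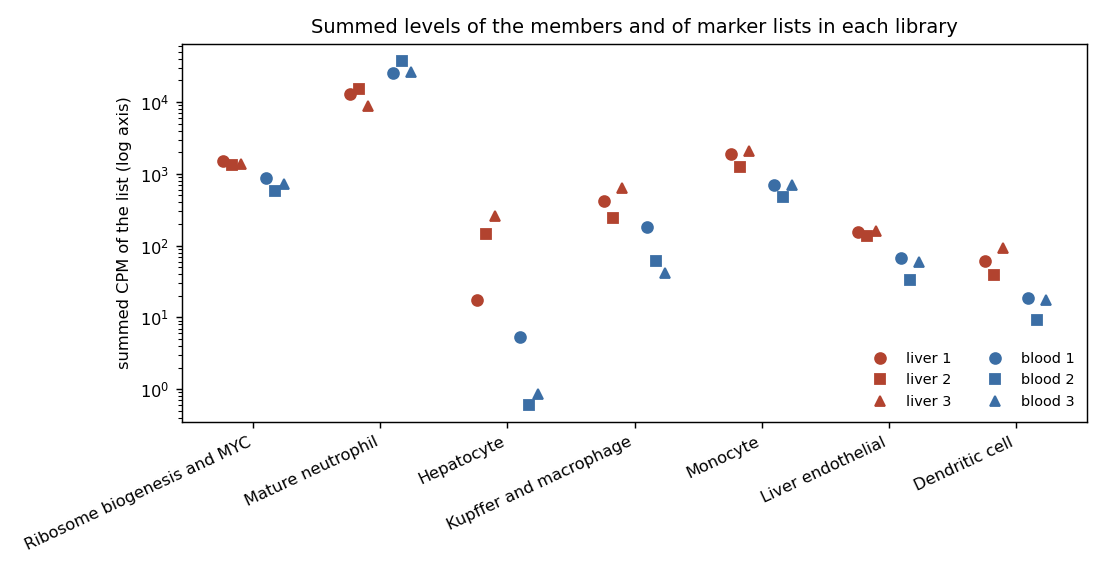
Summed CPM (log axis) of the 43 members and of marker lists in each library, liver left of blood within each list, with the symbol giving the library number. The member sums lie between 1308 and 1512 CPM in liver and between 570 and 884 CPM in blood, and the mature neutrophil markers run the other way.

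Myc itself, which lies on chromosome 15 from 61985391 to 61990374 (GRCm38), was low in both groups. It had 10.5, 10.4 and 13.5 CPM in liver 1, 2 and 3, against 5.16, 4.11 and 0.670 CPM in blood 1, 2 and 3. All liver libraries lay above all blood libraries, and blood 3 stood well under the other blood libraries. The fitted difference was 3.47-fold (log2 fold change 1.80 ± 0.59 (SE), edgeR adjusted p = 0.046). That call is narrow. It was lost without liver 1, liver 2, liver 3 or blood 2 (adjusted p 0.0863 to 0.114) and with the replicate number as a block (adjusted p = 0.0641), and the log2 fold change was 2.23 without blood 1 and 1.26 without blood 3. Among the blood libraries the order of Myc, blood 1 above 2 above 3, was also the order of the summed Kupffer cell and macrophage markers there, at 181, 60.3 and 41.4 CPM, and liver 3 was highest in both, with 644 CPM of those markers. The same order in blood was held by the erythroid sums (33609, 14734 and 366 CPM), the platelet sums (248, 78.9 and 46.5 CPM) and the mitochondrial mRNA share. The monocyte, liver endothelial and dendritic cell sums did not hold it. The part of other cells or of RNA composition in the Myc difference was not tested.

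None of the 10 tested genes of the MYC-MAX network around Myc was called higher by edgeR. Max, the obligate partner of MYC and of the MXD proteins, had 128, 168 and 102 CPM in liver 1, 2 and 3, against 255, 361 and 230 CPM in blood 1, 2 and 3. Every liver library was below every blood library (log2 fold change -1.09 ± 0.25, adjusted p = 0.0099), and the call was lost without liver 3 and blood 1 together (adjusted p = 0.051). Mxd4, which encodes a repressor that pairs with MAX, had 26.2, 18.4 and 30.5 CPM in liver and 74.7, 50.9 and 93.6 CPM in blood, again without overlap (log2 fold change -1.55 ± 0.28, adjusted p = 0.0034). Mlx, a MAX-like partner gene, was called lower at a log2 fold change of -0.87 (adjusted p = 0.044), and its call was lost when any 1 of the 6 libraries was left out (adjusted p 0.0564 to 0.127). These 3 of the 10 were called lower, where 14.2% of all genes were. Without liver 1, Mxi1, which encodes a further MAX-binding repressor, was called lower as well (adjusted p = 0.020). In the other direction edgeR called 0 and found 0 at an unadjusted p under 0.05, whereas DESeq2 called 1, Mycl, a MYC paralog that edgeR's filter had left out, with 20, 2 and 41 counts in liver 1, 2 and 3, against 3, 0 and 0 counts in blood 1, 2 and 3. Without blood 1, Mlxipl was called higher as well (adjusted p = 0.023), with 12, 18 and 26 counts in liver and 10, 0 and 0 in blood, where all its blood counts lay in blood 1.

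Mxd1 was by far the most abundant gene of the network. Per kilobase of merged exon it stood at 517 CPM in liver, against 602 CPM in blood. On the same scale Max stood at 36.8 in liver, against 78.3 in blood, and Myc at 4.22 in liver, against 1.22 in blood. Its levels were 4287, 4351 and 2334 CPM in liver 1, 2 and 3, against 4405, 4897 and 3467 CPM in blood 1, 2 and 3. The groups overlapped and the difference did not pass the test (log2 fold change -0.22 ± 0.30, adjusted p = 0.60). Mlxip, which encodes a glucose-responsive partner of MLX, changed by -0.48 on the log2 scale and also missed the threshold (adjusted p = 0.16).

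**Figure D3:**
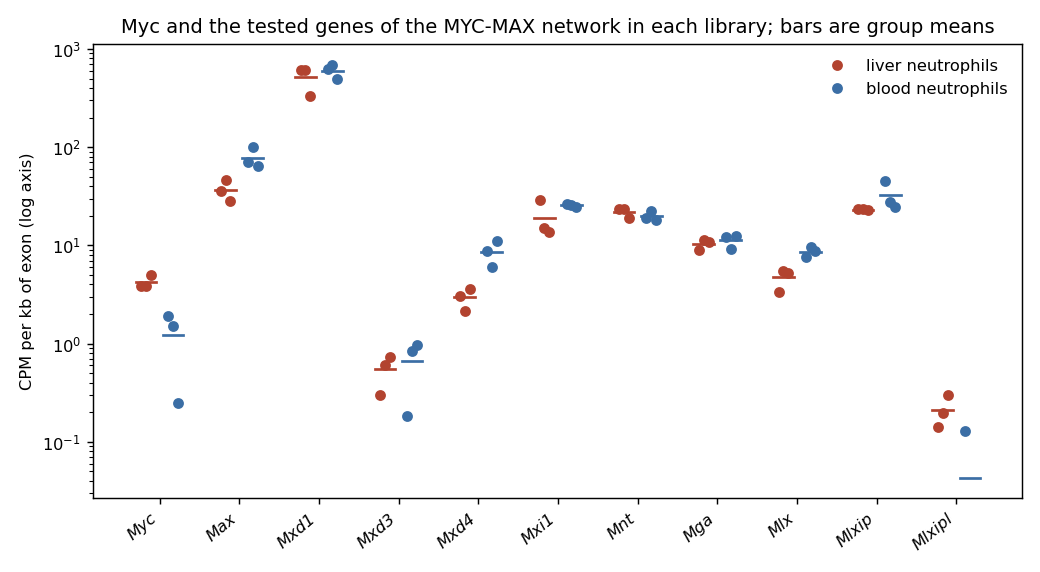
CPM per kilobase of merged exon (log axis) of Myc and the 10 tested MYC-MAX network genes in each library, liver left of blood, with bars at group means. Mxd1 stands highest, near 517 in liver and 602 in blood; Mlxipl had no counts in blood 2 and 3, so those points are not drawn.

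RNA polymerase I, the enzyme that makes the ribosomal RNA precursor, was split. Polr1a, its largest subunit, lies on chromosome 6 from 71909053 to 71984935 (GRCm38) and had 98.2, 65.8 and 88.3 CPM in liver 1, 2 and 3, against 149.5, 111 and 141 CPM in blood 1, 2 and 3. Every liver library was lower than every blood library (log2 fold change -0.67 ± 0.21, adjusted p = 0.036), although the call did not hold without liver 2, without liver 3, without blood 1 or without blood 3 (adjusted p 0.0629 to 0.102), nor with library totals as the only scaling. Polr1b, the second largest subunit, went the other way, with 2.93, 5.71 and 6.16 CPM in liver and 0.932, 1.14 and 1.94 CPM in blood, a 3.66-fold rise (adjusted p = 0.020) that was lost when liver 2, liver 3, blood 1 or blood 2 was left out (adjusted p 0.0604 to 0.0656). Polr1c, a subunit shared with RNA polymerase III, missed the threshold at a log2 fold change of 0.83 (adjusted p = 0.16). Per kilobase of exon, Polr1a stood at 7.08 CPM in liver, against 11.3 CPM in blood, and Polr1b at 0.850 CPM in liver, against 0.230 CPM in blood.

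The other 13 RNA polymerase I genes tested gave 3 called higher (23.1%) and 2 lower (15.4%), near the 17.4% and 14.2% of all genes. Tcof1, which encodes the nucleolar protein treacle, had a log2 fold change of 1.23 ± 0.22 (adjusted p = 0.0033). Polr1e, a further subunit gene, had one of 2.54, with its call lost without liver 2 (adjusted p = 0.0543). Rrn3, an initiation factor, had one of 1.43 and was named after its values were seen; its call was lost when liver 1, liver 3, blood 2 or blood 3 was left out (adjusted p 0.0579 to 0.0797). The termination factor gene Ttf1 fell by 1.25 on the log2 scale (adjusted p = 0.0029), with 14.4, 17.8 and 15.6 CPM in liver and 33.0, 40.7 and 39.7 CPM in blood, and the groups were far apart. Twistnb, a subunit gene, fell by 0.85 on that scale, and its call was lost without liver 1 (adjusted p = 0.0509). The median over the 13 genes was 0.15.

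Among nucleolar scaffold and rRNA transcription partner genes, 4 of 5 (80.0%) were called higher, against 17.4% of all genes. Npm1, encoding the nucleolar chaperone nucleophosmin, had 72.8, 56.2 and 55.0 CPM in liver 1, 2 and 3, against 31.8, 22.6 and 15.9 CPM in blood 1, 2 and 3, a 2.62-fold difference (adjusted p = 0.0051). Ddx21, an RNA helicase of the nucleolus, was nearly constant in liver, with 93.4, 95.8 and 95.7 CPM in liver and 31.0, 18.2 and 19.9 CPM in blood. Its difference was 4.12-fold, with the smallest adjusted p of the 43 members (0.00054). Nolc1, a chaperone that accompanies snoRNPs, had 28.8, 26.5 and 26.2 CPM in liver and 9.32, 4.46 and 6.70 CPM in blood. Mybbp1a, a nucleolar MYB-binding protein gene, had 23.3, 19.0 and 35.1 CPM in liver and 9.68, 6.29 and 6.83 CPM in blood. These were 3.97-fold and 3.39-fold higher, and for both the groups were well separated.

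Ncl, encoding nucleolin, was the member with the highest level per kilobase of exon, with 48.4 CPM in liver, against 29.9 CPM in blood. Its levels were 545, 482 and 455 CPM in liver 1, 2 and 3, against 398, 211 and 305 CPM in blood 1, 2 and 3. The groups did not overlap, yet the log2 fold change of 0.70 ± 0.25 missed the threshold (adjusted p = 0.056). Ncl was called higher in 6 of 13 alternatives: without blood 1, without liver 3 and blood 1 together, with library totals as the only scaling, with no filter, with the replicate block and by DESeq2 (adjusted p 0.0169 to 0.0499).

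**Figure D4:**
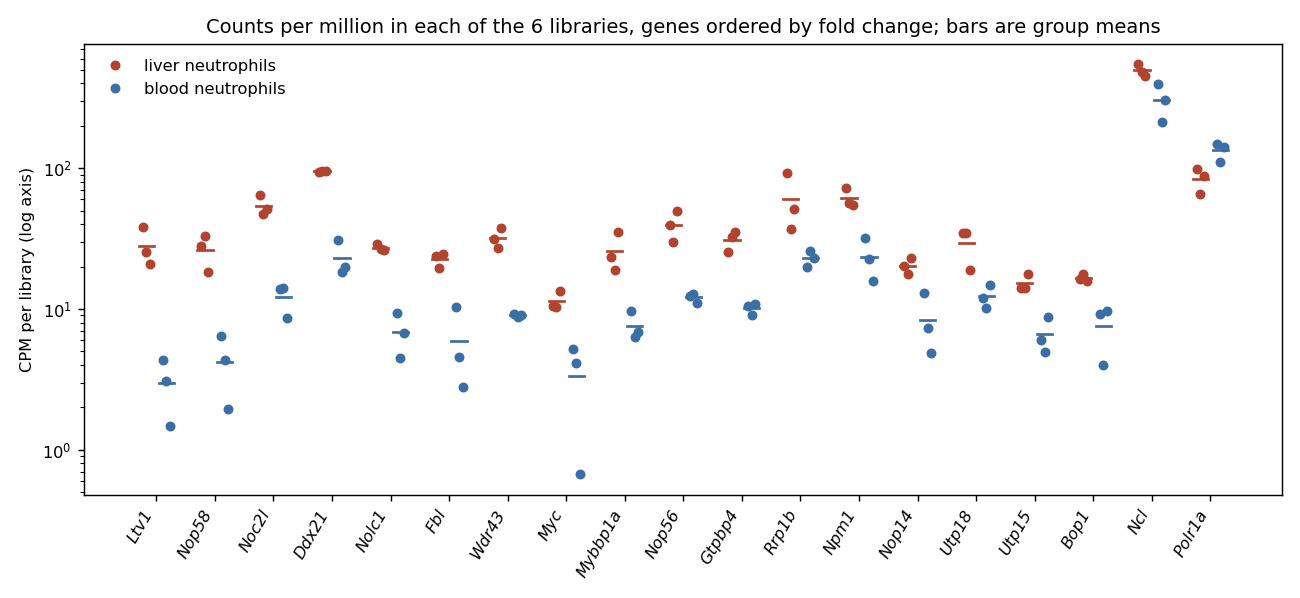
CPM (log axis) in each library for Myc, Ncl and the 17 called members with a mean of at least 10 CPM, ordered by fold change, liver left of blood, with bars at group means. No gene shown has overlapping groups, and only Polr1a at the right end is lower in liver.

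The members include 3 core genes of the box C/D snoRNPs, which guide ribose methylation, and these 3 were called higher. Fbl, the methyltransferase fibrillarin, had 23.8, 19.5 and 24.6 CPM in liver 1, 2 and 3, against 10.3, 4.54 and 2.81 CPM in blood 1, 2 and 3. Its log2 fold change was 1.94 ± 0.44 (adjusted p = 0.0099), and 2.58 without blood 1. Nop58, a scaffold protein gene of the class, had 27.9, 32.9 and 18.2 CPM in liver and 6.38, 4.37 and 1.94 CPM in blood, a 6.23-fold difference (adjusted p = 0.0024). The paralogous scaffold gene Nop56 had 39.3, 29.97 and 49.7 CPM in liver and 12.4, 12.8 and 11.0 CPM in blood, a 3.28-fold difference (adjusted p = 0.0014). Blood libraries varied little for Nop56 and liver libraries more. Snu13, the remaining core gene of the class and no member, had 17.5, 19.9 and 13.02 CPM in liver and 11.3, 16.3 and 10.9 CPM in blood, with overlapping groups (log2 fold change 0.39, adjusted p = 0.33).

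The members also include 3 core genes of the box H/ACA class, which guides pseudouridylation. Nhp2, a core protein gene, was 3.02-fold higher (adjusted p = 0.0087). Dkc1, the pseudouridine synthase dyskerin, had 2.54, 2.34 and 4.68 CPM in liver and 3.58, 2.71 and 2.14 CPM in blood, and Gar1 had 1.30, 2.70 and 1.48 CPM in liver and 1.07, 0.524 and 1.41 CPM in blood. Both overlapped between groups and did not pass the test (adjusted p = 0.79 and 0.32). The difference between the 2 classes was not tested. From the list of other snoRNP genes, 4 of 8 tested were called higher. Nop10, the remaining H/ACA core gene, had a log2 fold change of 1.76 and the assembly factor gene Naf1 one of 2.53; the assembly genes Znhit3 and Ruvbl1 had 2.77 and 1.48. None of these 4 calls held without each library: Nop10 was lost without liver 2 or blood 3 (adjusted p 0.0576 to 0.0754), Naf1 without any library except blood 2 (0.0653 to 0.109), Znhit3 without any except liver 2 (0.0514 to 0.0998) and Ruvbl1 without any except blood 3 (0.0567 to 0.0921).

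Small subunit processing genes were called higher in 9 of 12 members (75.0%, against 17.4% of all genes), and their median log2 fold change was 1.62. The largest rise of all 43 members was that of Ltv1, a factor needed for late maturation of the small subunit, on chromosome 10 from 13178140 to 13193168 (GRCm38). It had 37.9, 25.5 and 20.7 CPM in liver 1, 2 and 3, against 4.37, 3.06 and 1.47 CPM in blood 1, 2 and 3, a 9.45-fold difference (adjusted p = 0.00094). Rrp9, which binds a snoRNA needed for the first cleavages of the precursor, varied little within each group, with 6.97, 6.73 and 6.03 CPM in liver and 0.717, 0.787 and 0.603 CPM in blood, the blood values resting on 10, 9 and 9 counts, a 9.30-fold difference (adjusted p = 0.00086). Rrp12, an export factor gene, was 5.16-fold higher, and Tsr1, a late assembly factor gene, 4.73-fold higher. Tsr1 shares 1240 bases of exon with Srr on the opposite strand, and Srr had a mean of 4.06 CPM in liver, against 1.32 CPM in blood, so reads of these genes may be mixed if strand was not used in counting.

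Several of the small subunit genes belong to subcomplexes that bind the precursor while it is being transcribed. Wdr43, of the UTP-A subcomplex, had 31.4, 27.2 and 37.9 CPM in liver and 9.17, 8.83 and 9.04 CPM in blood, a 3.56-fold difference (adjusted p = 0.00087) with almost no spread among blood libraries. Utp15, of the same subcomplex, had 14.2, 14.1 and 17.7 CPM in liver and 6.02, 4.98 and 8.77 CPM in blood (2.32-fold, adjusted p = 0.016). Utp18, of the UTP-B subcomplex, had 34.5, 34.4 and 19.0 CPM in liver and 12.0, 10.2 and 14.7 CPM in blood (2.37-fold, adjusted p = 0.012). For each of them the lowest liver library stood above the highest blood library. Nop14, another processome protein gene, had 20.3, 17.8 and 22.9 CPM in liver and 12.97, 7.34 and 4.89 CPM in blood (2.42-fold, adjusted p = 0.025), and Wdr75, also of UTP-A, was 3.24-fold higher. Some of these calls were lost with 1 library fewer: Utp15 without liver 3, blood 1 or blood 2 (adjusted p 0.0515 to 0.0546, log2 fold change 1.02 to 1.11), Utp18 without liver 1 (0.0505, log2 fold change 1.10), Nop14 when liver 1, liver 3, blood 2 or blood 3 was left out (0.0668 to 0.0766) and Wdr75 without any library except liver 1 (0.0501 to 0.0859). The log2 fold changes in those fits were 0.96 to 1.27 for Nop14 and 1.46 to 1.79 for Wdr75.

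The remaining small subunit members, Utp20, Nob1 and Noc4l, had log2 fold changes of 1.55, 1.495 and 0.62 and were not called. Utp20 was called higher in 3 of 13 alternatives, which were DESeq2, no filter and library totals as the only scaling (adjusted p 0.00548 to 0.0416). In the list of 42 other small subunit genes, 15 were called higher and 1 lower (35.7% and 2.38%), against 17.4% and 14.2% of all genes. The median was 0.63. Heatr1 and Utp4, which share UTP-A with Utp15, Wdr43 and Wdr75, had log2 fold changes of 2.65 ± 0.23 and 2.46 ± 0.33. Heatr1 had 43.7, 49.4 and 53.1 CPM in liver and 8.74, 7.78 and 6.76 CPM in blood. Nol10 and Pdcd11, further nucleolar processing genes, had log2 fold changes of 3.27 and 1.95. The 1 lower gene was Krr1, named after its values were seen, with a log2 fold change of -0.91 (adjusted p = 0.010).

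Large subunit processing genes were called higher in 11 of 16 members (68.8%, against 17.4% of all genes), and their median log2 fold change was 1.42. Noc2l, encoding a nucleolar complex protein, had 64.2, 47.0 and 51.2 CPM in liver 1, 2 and 3, against 13.9, 14.0 and 8.64 CPM in blood 1, 2 and 3, a 4.45-fold difference (adjusted p = 0.00062). It shares 598 bases of exon with Samd11 on the opposite strand, which had a mean of 2.40 CPM in liver, against 0.666 CPM in blood. Its partner Noc3l was 4.53-fold higher. Gtpbp4, a GTPase gene with 7 annotated pseudogenes that can share its reads, had 25.3, 32.6 and 35.4 CPM in liver and 10.5, 9.09 and 10.8 CPM in blood (3.06-fold, adjusted p = 0.0016). Rrp1b, which also acts in pre-rRNA processing, had 91.9, 37.1 and 51.1 CPM in liver and 19.998, 25.7 and 23.0 CPM in blood, a 2.62-fold difference with liver 1 far above the other liver libraries. Its log2 fold change of 1.39 became 0.94 without liver 1 (adjusted p = 0.0338), and its call was lost without liver 3 and blood 1 together (adjusted p = 0.059).

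Gnl3, the nucleolar GTPase nucleostemin, was 7.09-fold higher (adjusted p = 0.0012), whereas the related GTPase gene Gnl2 had 25.8, 28.2 and 30.7 CPM in liver and 22.9, 11.1 and 26.5 CPM in blood, with overlapping groups (adjusted p = 0.26). Nifk, which binds the proliferation antigen Ki-67, was 5.72-fold higher, Nop16 4.93-fold and Rrs1, a ribosome assembly factor, 3.55-fold. The Rrs1 call was lost without liver 3 and blood 1 together (adjusted p = 0.0522). The 3 genes of the PeBoW complex, needed for processing of the large subunit rRNA, gave different values. Bop1 had 16.2, 17.6 and 15.8 CPM in liver and 9.17, 4.02 and 9.64 CPM in blood (2.17-fold, adjusted p = 0.037), Wdr12 was 2.73-fold higher (adjusted p = 0.045), and Pes1 had a log2 fold change of 0.70 that missed the threshold (adjusted p = 0.17). The Bop1 call was lost without any library except blood 3 (adjusted p 0.0555 to 0.0921), that of Wdr12 without any of the 6 (0.0547 to 0.161) and that of Nip7, a further assembly factor gene at 2.32-fold, without any except liver 3 (0.0636 to 0.172).

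Nop2, an rRNA methyltransferase gene, and Ebna1bp2, an assembly factor gene, sat at log2 fold changes of 0.16 and 0.05 with overlapping groups. Mak16 had one of 0.86 with an adjusted p of 0.053. It shares 882 bases of exon with Tti2 on the opposite strand. Tti2 had a mean of 8.20 CPM in liver, against 7.80 CPM in blood. Reads of these genes too may be mixed if strand was not used in counting. In the list of 48 other large subunit genes, 25 were called higher (52.1%, against 17.4% of all genes), with a median of 1.07. Spata5, an ATPase gene of late subunit maturation, and Ppan, an early assembly factor gene, had log2 fold changes of 2.98 and 2.27. Mdn1, the giant remodelling ATPase midasin, had one of 1.61, and the helicase gene Ddx54 one of 1.08. Over all 111 tested genes of the other ribosome biogenesis lists, 47 were called higher and 3 lower, or 42.3% and 2.70%. The shares over all genes were 17.4% and 14.2%. The median log2 fold change of the 111 was 0.76. Without liver 3 and blood 1 the count called higher was 28, in a fit that called 11.9% of all genes higher.

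**Figure D5:**
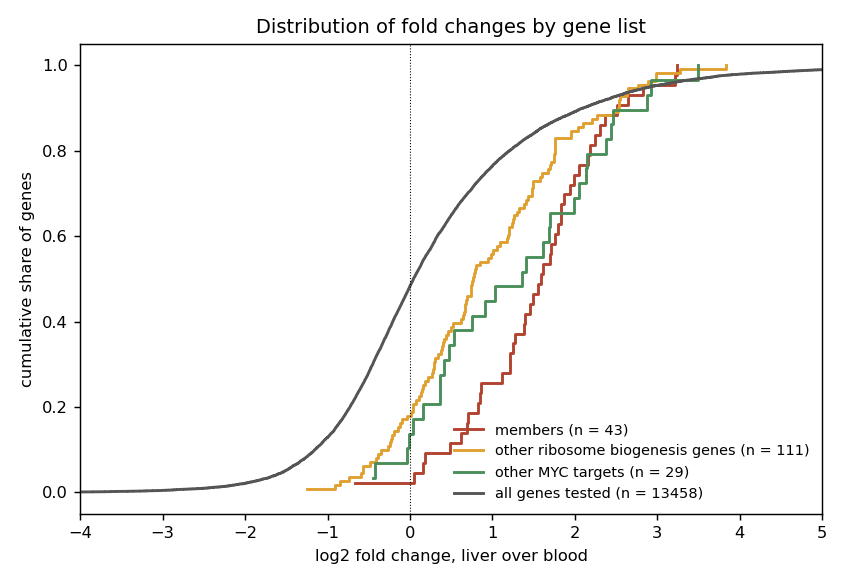
Cumulative share of genes (y axis) by log2 fold change of liver over blood (x axis) for the 43 members, 111 other ribosome biogenesis genes, 29 other MYC targets and all 13458 genes tested. The curves of the 3 lists lie to the right of the curve for all genes over most of the range and meet it at the upper end, with medians of 1.59, 0.76, 1.36 and 0.04 in that order.

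Genes that MYC is known to raise outside the ribosome were called higher in 15 of 29 tested (51.7%), against 17.4% of all genes. Their median log2 fold change was 1.36. In the other direction edgeR called 0, found 0 at an unadjusted p under 0.05, and DESeq2 called 0. Pcna, the sliding clamp of DNA replication, had 67.3, 68.7 and 58.2 CPM in liver 1, 2 and 3, against 18.9, 18.3 and 11.9 CPM in blood 1, 2 and 3 (log2 fold change 1.98 ± 0.23, adjusted p = 0.00058). Slc3a2, a chain of amino acid transporters, had 552, 465 and 309 CPM in liver and 83.9, 106 and 50.02 CPM in blood (2.47 ± 0.32, adjusted p = 0.00090). Nme1, a nucleoside diphosphate kinase gene, and Ahcy, which recycles the by-product of methylation, had log2 fold changes of 2.88 and 2.93. Pcna, Slc3a2, Nme1 and Ahcy were named for the smallest p of the list. Of the 29, 14 were not called, and 4 had negative log2 fold changes, among them Ldha (-0.43). Slc7a5 and Hk2, also not called, had 0.04 and 0.16. Of genes tied to cell division, Mki67 had 104, 50.2 and 91.7 CPM in liver and 51.2, 29.7 and 85.4 CPM in blood, with overlapping groups. Top2a, a topoisomerase of dividing cells, had 12.0, 3.36 and 5.13 CPM in liver and 3.30, 2.53 and 0.803 CPM in blood, without overlap, and missed the threshold at 3.09-fold (adjusted p = 0.073). Mcm5, of the replicative helicase, also missed it at 3.06-fold without overlap (adjusted p = 0.073).

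The promoters of the members were searched for the canonical E-box, CACGTG, the site that MYC-MAX and MXD-MAX dimers bind. It reads the same on both strands. The windows, from RefSeq on GRCm38.p6, span 250 bases before to 50 after an annotated start. Of 35 members with a window, 8 (22.9%) held the motif, against 8.09% of 27025 genes with a window, 8.91% of 17491 protein-coding genes and 12.0% of 9107 tested genes. The 8 sites are shown because they are the stretches of member promoters that hold this motif. Each line gives 30 bases, 5′ to 3′ on the gene's strand, with the motif in capitals.
Ltv1 (chr10:13193092-13193121, minus strand): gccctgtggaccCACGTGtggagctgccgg
Mybbp1a (chr11:72441347-72441376, plus strand): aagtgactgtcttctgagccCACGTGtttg
Tsr1 (chr11:74898092-74898121, plus strand): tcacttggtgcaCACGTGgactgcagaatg
Utp18 (chr11:93885769-93885798, minus strand): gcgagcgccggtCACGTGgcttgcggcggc
Wdr43 (chr17:71616220-71616249, plus strand): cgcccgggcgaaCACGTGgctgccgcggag
Utp20 (chr10:88826765-88826794, minus strand): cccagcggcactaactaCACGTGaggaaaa
Pes1 (chr11:3963965-3963994, plus strand): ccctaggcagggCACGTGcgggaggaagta
Nop2 (chr6:125131811-125131840, plus strand): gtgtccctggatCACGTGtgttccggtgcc
Counted from 1 at the first transcribed base, the motif began at -60 in Nop2, at -20 in Utp18 and between 3 and 41 in the other 6. The first 5 genes were called higher and the last 3 were not. Among the 35 members, 5 of 8 with the motif (62.5%) and 19 of 27 without it (70.4%) were called higher. Among all tested genes with a window, 24.7% of 1095 with the motif and 17.1% of 8012 without it were called higher. A motif match is no evidence of binding, and other MYC-binding sequences were not searched.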

How the data were processed

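The authors deposited expected counts per gene, 1 file per library, estimated with RSEM after STAR alignment to GRCm38 according to the submitters' processing notes; FastQC 0.11.5 and limma are named there too. Not given in the sources used here are the STAR and RSEM versions and the strand setting of the counting. Per the labels' protocols, libraries were made with a stranded low-input total RNA kit and read as paired ends. The expected counts were rounded to whole numbers and kept 1 row per gene identifier. Genes passing filterByExpr (minimum count 10, minimum total 15) were TMM-scaled, and liver was tested against blood in edgeR 4.0.16 under R 4.3.3 (quasi-likelihood F test, robust fit). Adjusted p-values are Benjamini-Hochberg values over 13458 genes, and standard errors were derived from the F statistic. The steps were tested on simulated data. DESeq2 1.42.0, other scalings, no filter, a replicate block and leaving out libraries served as alternatives.

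Merged exon lengths, overlaps and coordinates came from GENCODE release 21 for mouse, which matched 98.9% of rows by identifier. Levels of different genes were ranked against each other only per kilobase of exon. The cut at a mean of 10 CPM and the members' range of mean level used CPM without exon length. Whether each library came from its own mouse is not stated, and the p-values reflect only the spread among these libraries, which may be technical. No 2 libraries of a group were 1 library deposited again (chi-square per degree of freedom 52.1 to 79.0). Floors in CPM cover counting error only. The members and lists were chosen with earlier results of these data known. Values in every library are given for Myc, Ncl, called members with a mean of at least 10 CPM and, chosen after their values were seen, some further genes. From each further list, up to 4 genes with the smallest p were named, plus Max and Mxd1. Of the listed symbols, 8 had no row.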

Additional observations from a re-analysis of the deposited data

How the results depend on the processing

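Over 13 alternatives, 22 to 32 members were called higher, and 19 of the 31 called members were called in each of them. Leaving out 1 library gave 22 to 26 members higher and 0 to 1 lower, 1732 to 1993 of all genes higher and 1323 to 1626 lower, 34 to 40 other ribosome biogenesis genes higher and 2 to 3 lower, 0 to 2 MYC network genes higher and 2 to 3 lower, and 11 to 14 other MYC targets higher and 0 lower. The Myc log2 fold change ran from 1.26 to 2.23 in those fits. Without liver 3 and blood 1 together, 0 members, 1 MYC network gene and 1195 of all genes were lower, 28 other ribosome biogenesis genes and 1 MYC network gene were higher, and the Myc value was 2.12 (adjusted p = 0.092). With library totals as the only scaling, the median of all genes moved to 0.11 and 0 members were called lower. DESeq2, and edgeR with no filter, each called 1 MYC network gene higher. Whether the numbers in the sample titles pair the libraries is not stated. Deviations of same-numbered libraries correlated at 0.0693 to 0.208, and the other pairs at -0.195 to 0.111. Liver 1 and liver 2 correlated best with their own number, liver 3 with blood 1. Deviations within groups of only 3 libraries cannot decide the pairing, so no conclusion was drawn from them. As the meaning of the numbers is not stated, they were not used as pairs in the main test. With the replicate number as a block, 29 members were higher and 1 lower, 1 other MYC target was lower, and Myc had 2.05 (adjusted p = 0.0641). No member called with all libraries changed direction in any alternative; Dkc1, Nop2 and Ebna1bp2, which were not called, did. The cause of these changes was not tested. Depth limits the rarer members: blood libraries held 9 to 10 counts of Rrp9, 6 to 21 of Gar1, 8 to 25 of Nifk and 10 to 72 of Myc.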

Other observations

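The RNA partners of the snoRNP proteins were only sparsely covered. Of 140 snoRNA rows, 12 passed the filter, all 12 with a positive log2 fold change (median 0.93), and 2 (16.7%) were called higher in liver, near the 17.4% of all genes. Snord33 had a mean of 9.84 CPM in liver, against 1.89 CPM in blood (log2 fold change 2.37), and Snord15b 40.4 CPM in liver, against 10.8 CPM in blood (1.91). The product of the pathway could be read only through the rRNA-overlapping models Gm26917 and Gm42418. Jointly these took 2.20%, 1.15% and 2.70% of counts in liver 1, 2 and 3, against 0.420%, 0.447% and 0.0923% in blood 1, 2 and 3. The part of ribosomal RNA removal during library preparation in these shares was not tested.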
